A study of Mus musculus with 6 samples.

Results

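The apolipoprotein and sterol efflux genes described here are 9 of the 54532 genes in the deposited table, taken by their symbols: the nuclear receptor genes Nr1h2 and Nr1h3, the efflux transporter genes Abca1 and Abcg1, the ubiquitin ligase gene Mylip, and the apolipoprotein genes Apod, Apoe, Apoc1 and Clu. The members were selected on measured values, namely the read count differences between these baicalin and DMSO libraries, so their own values in this contrast are a description and carry no test. Genes of the same pathway outside this set were tested. RNA came from wild-type cells of the mouse fibroblast line 3T3, labelled as adipocytes. The treated cells received 200 µM baicalin, a plant flavone glucuronide, in 3 libraries, and the others received DMSO, a solvent, in 3 libraries. How long the cells were exposed, how fat cell formation was induced and whether the libraries of a group are separate cultures are not stated in the labels, and the p-values given reflect only how much these libraries differ among themselves, which may be technical. Total counts were 17598666 to 18326874 per baicalin library and 16730594 to 17711950 per DMSO library. Levels are TMM-scaled CPM, reads relative to library size, and levels of different genes are compared as the authors' FPKM, which is per length.

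Oxysterols, which are oxidised cholesterol derivatives, bind the liver X receptors LXRα (Nr1h3) and LXRβ (Nr1h2), which pair with a retinoid X receptor and switch on their target genes. Among these, ABCA1 and ABCG1 pass cholesterol to lipid-poor apolipoproteins and to HDL, and MYLIP (also called IDOL) marks receptors of the LDL receptor family for breakdown. In fat tissue and macrophages Apoe and Apoc1 are LXR targets too, while apolipoprotein D is a lipocalin that carries small lipids, and clusterin (Clu, apolipoprotein J) is a secreted chaperone found on HDL.

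The promoters of Abca1 and Apod are shown because Abca1 is the classical LXR target, and Apod had the lowest log2 fold change of the set. Each holds 250 bases before and 50 after the RefSeq start, on GRCm38.p6 (the assembly of mm10), both on the minus strand. They lie at chr4:53159846-53160145 for Abca1 and chr16:31314759-31315058 for Apod. Capitals mark the bases of a DR4-like match, the layout that LXR and its partner bind.
Abca1: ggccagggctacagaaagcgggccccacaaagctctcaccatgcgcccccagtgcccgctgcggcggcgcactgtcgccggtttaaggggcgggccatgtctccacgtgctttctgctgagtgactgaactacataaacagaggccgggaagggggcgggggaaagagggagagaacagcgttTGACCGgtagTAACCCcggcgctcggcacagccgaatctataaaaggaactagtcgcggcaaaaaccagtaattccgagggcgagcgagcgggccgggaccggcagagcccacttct
Apod: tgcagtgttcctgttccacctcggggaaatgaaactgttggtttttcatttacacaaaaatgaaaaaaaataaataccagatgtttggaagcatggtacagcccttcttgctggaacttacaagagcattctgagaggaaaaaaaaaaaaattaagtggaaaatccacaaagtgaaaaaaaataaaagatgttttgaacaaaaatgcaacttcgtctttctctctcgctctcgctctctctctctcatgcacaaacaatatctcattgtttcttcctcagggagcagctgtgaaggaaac

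A DR4 is the half-site AGGTCA repeated in the same direction with 4 bases between the copies. Both strands were searched. RefSeq promoters were found for 6 members (9 windows in all), with none used here for Apoc1, Clu and Abcg1. No exact DR4, no DR4 with up to 2 differences in its 12 fixed bases and no half-site AGGTCA was found in the 9 windows, against 0.0152%, 3.02% and 16.3% of 32851 promoter windows of all genes. With 3 differences allowed, a limit chosen after the sequences were seen, Abca1 had 1 match on the minus strand from base -67 to base -52, counted from the start as base 1, and 21.9% of all windows had one. Abca1 also held CACGTG, the E-box, found in 7.15% of windows, and Mylip held GCGTG, the core bound by the aryl hydrocarbon receptor, at 2 places, against 32.4% of windows with at least 1. No window held TGACNNNGC, the core of the antioxidant element (12.4% of windows), or TGACTCA, the AP-1 site (5.2%). The Apod window had a GC content of 37.3%, below the lower quartile of all windows (45.7%), and those of Mylip (71.0%), Nr1h3 (63.0% and 62.7% in its 2 windows) and Abca1 (62.7%) were above the upper quartile (61.7%). The other 4 windows, of Apoe and Nr1h2, lay between, at 50.7 to 57.7%. These matches are letters in short windows and say nothing of binding.

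All 9 members had enough reads to be tested, and by the adjusted p of the genome-wide fit 3 were higher and 6 lower in baicalin. Of all 13728 tested genes, 67.7% were called, 33.6% higher and 34.1% lower. Because the choice of members used this contrast, nothing is read from their count. Values of the baicalin and DMSO libraries did not overlap for any of the 9, as for 70.2% of all tested genes. Scaling by library size without TMM shifted the median over all tested genes by -0.13 on the log2 scale, and changes are given relative to TMM.

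Markers of the cells were read beside these values, since in bulk RNA fewer cells of a type and less RNA per cell cannot be told apart. Of 10 fat cell markers 6 were tested, 5 were lower and 1, Lipe, was higher, and their summed level was 399 to 418 CPM in baicalin and 504 to 585 CPM in DMSO. The labels call the cells adipocytes, and the 10 markers differed widely. Fabp4 stood at 298 ± 6.08 CPM in baicalin and 430 ± 37.9 CPM in DMSO, Lipe at 89.2 ± 3.06 CPM in baicalin and 59.0 ± 4.40 CPM in DMSO, Pparg at 13.8 ± 0.67 CPM in baicalin and 17.6 ± 1.57 CPM in DMSO, and Plin1 at 5.93 ± 0.84 CPM in baicalin and 18.9 ± 2.79 CPM in DMSO (SD, n = 3 each). Cidec had 27 reads in baicalin and 286 in DMSO, and Adipoq 7 reads in baicalin and 90 in DMSO. Near 0 were Cfd with no read in baicalin and 15 in DMSO, Lep with none in baicalin and 2 in DMSO, Slc2a4 with 1 read in baicalin and 5 in DMSO, and Retn with 28 reads in baicalin and 4 in DMSO. Of 12 macrophage markers, listed because macrophages express Apoe, Abca1 and Nr1h3 strongly, 4 were tested. Cd68, named after its values were seen, was called higher, but not once baicalin replicate 3 was left out (adjusted p = 0.0605). Their summed level was 5.93 to 7.40 CPM in baicalin and 5.26 to 5.70 CPM in DMSO. The defining markers Ptprc, Adgre1, Itgam and Tyrobp had between 0 and 4 reads in a whole group. Of 6 fibroblast markers 5 were lower and Thy1 was higher (Dcn was higher too with length and GC trends removed), with sums of 8618 to 8840 CPM in baicalin and 12550 to 13050 CPM in DMSO. The part of these shifts in the members' values was not tested.

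**Figure D1:**
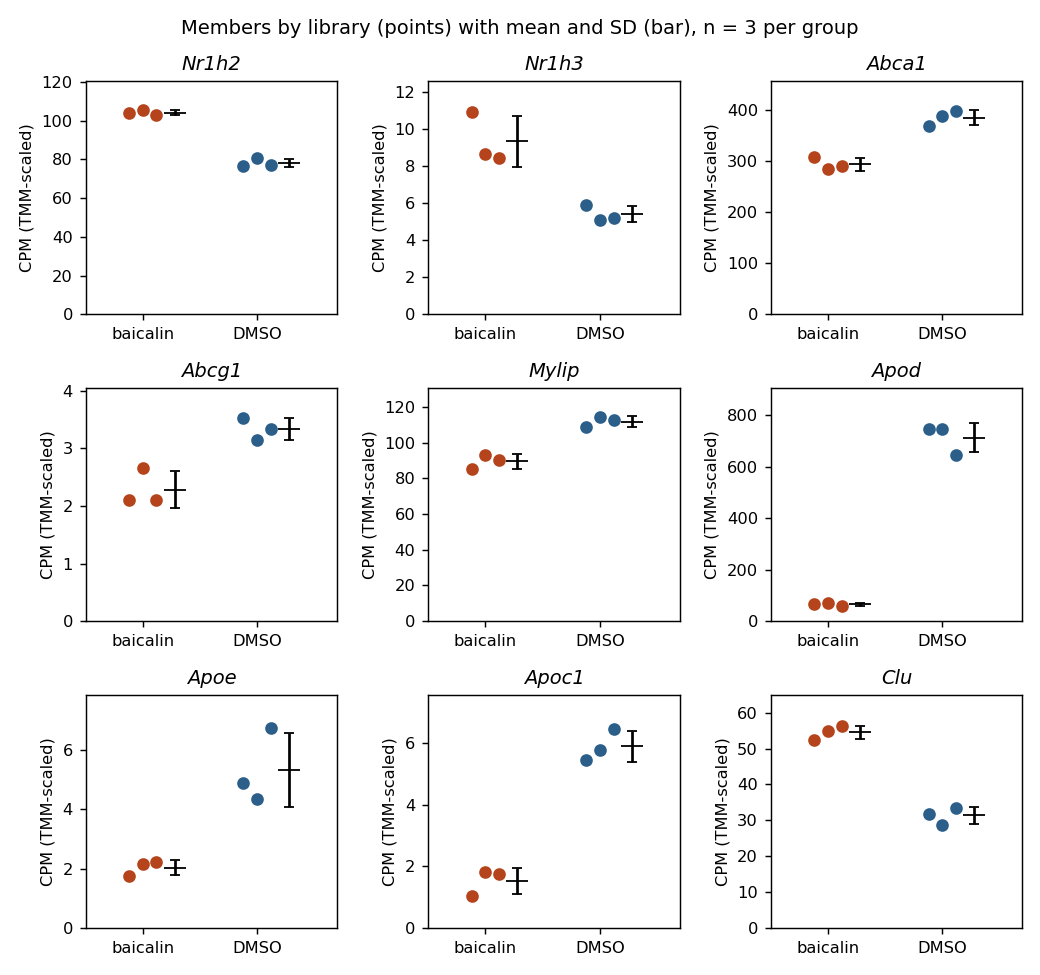
TMM-scaled CPM of the 9 members in each library (points, 3 baicalin libraries left of 3 DMSO libraries) with the group mean and SD as a bar; every vertical axis starts at 0. Nr1h2, Nr1h3 and Clu sit higher in baicalin, and the other 6 sit lower, with Apod at 59.4 to 68.7 CPM in baicalin against 646.7 to 746.6 CPM in DMSO.

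Both receptor genes were modestly higher in baicalin. Nr1h2 (LXRβ, ENSMUSG00000060601, chromosome 7, 44549616 to 44553951), the receptor form made in most tissues, had 103.9, 105.6 and 103.1 CPM in baicalin and 76.8, 80.5 and 77.2 CPM in DMSO. The 3 baicalin libraries lay within a few CPM of each other and above all DMSO libraries, with a log2 fold change of 0.42 (SE 0.05). Nr1h3 (LXRα, ENSMUSG00000002108, chromosome 2, 91184061 to 91202834), the form typical of liver, fat and macrophages, had 181, 153 and 145 reads in baicalin and 109, 89 and 95 reads in DMSO. That is 9.33 ± 1.36 CPM in baicalin and 5.40 ± 0.44 CPM in DMSO (SD, n = 3 each), a log2 fold change of 0.78 (SE 0.14), with baicalin replicate 1 the highest library. Its exons share 34 bp with Gm13783, which had 6 reads in all. After removal of trends with gene length and GC content the log2 fold changes stood at 0.20 for Nr1h2 and 0.52 for Nr1h3. Per length, LXRβ was the more abundant form in each library: the ratio of Nr1h2 to Nr1h3 FPKM was 7.16, 9.17 and 9.15 in baicalin and 9.75, 11.9 and 11.1 in DMSO. The ratio was thus lower in the 3 baicalin libraries than in the 3 DMSO libraries, but narrowly, at 9.17 against 9.75 for the closest libraries. Counting error of Nr1h3, with 89 to 181 reads per library, limits this comparison.

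The retinoid X receptor genes, which encode the partners of LXR, went in both directions. Of 17 tested genes among 20 listed LXR partners and coregulators, 3 rose and 10 fell, with a median log2 fold change of -0.30 beside 0.0014 for all tested genes. With the length trend removed 9 of the list were called lower, and 8 with length and GC trends removed. Rxra, a retinoid X receptor gene, had 339.8, 302.0 and 315.2 CPM in baicalin and 448.7, 446.0 and 429.3 CPM in DMSO (log2 fold change -0.47, SE 0.04, edgeR adjusted p = 5.65e-15). Rxrb rose to 97.2 ± 0.32 CPM in baicalin, against 75.9 ± 7.56 CPM in DMSO (SD, n = 3 each, log2 fold change 0.36, adjusted p = 1.49e-07), and Rxrg had 1 read in all 6 libraries. Among the coactivators, which link the receptor to the transcription machinery, Ncoa3 fell 1.60-fold and Ncoa2 1.53-fold. The corepressor gene Ncor1, whose product holds LXR targets off without ligand, fell 1.58-fold, and Nrip1, a coregulator active in fat cells, 1.53-fold. Exons of Ncoa3 overlap those of Sulf2 on the other strand over 154 bp, and those of Ncor1 overlap Pigl over 82 bp, and with the strand setting not given both values are uncertain. The other two rises were those of the methyltransferase gene Prmt3 (1.32-fold) and of the deacetylase gene Hdac3 (1.10-fold). The call of Hdac3 was lost with library-size scaling (adjusted p = 0.801), with the length trend removed (0.0726), with length and GC trends removed (0.238), on the log2(FPKM + 1) scale without a filter (0.111) and without DMSO replicate 1 (0.0927).

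The 2 transporter genes were lower in baicalin and differed widely in level. Abca1 (ENSMUSG00000015243, chromosome 4, 53030787 to 53159895), which loads cholesterol and phospholipid onto lipid-poor apolipoprotein, had 307.6, 283.5 and 290.4 CPM in baicalin and 368.5, 387.1 and 398.5 CPM in DMSO. Each baicalin library was below each DMSO library, with a log2 fold change of -0.39 (SE 0.04). With the length trend removed from each library the value was -0.15, and the transcript is long, at 10363 bp of merged exons. Abcg1 (ENSMUSG00000024030, chromosome 17, 31057675 to 31117988), which passes cholesterol on to HDL, had only 35, 47 and 36 reads in baicalin and 65, 55 and 61 reads in DMSO. That is 2.29 ± 0.32 CPM in baicalin and 3.34 ± 0.19 CPM in DMSO (SD, n = 3 each), a log2 fold change of -0.54 (SE 0.22). On the log2(FPKM + 1) scale without a filter, which compresses low genes, it was -0.22. Abca1 stood 57.3, 41.9 and 54.3 times above Abcg1 per length in the baicalin libraries, and 41.1, 48.3 and 46.8 times in the DMSO libraries. These ratios overlapped between the groups.

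**Figure D2:**
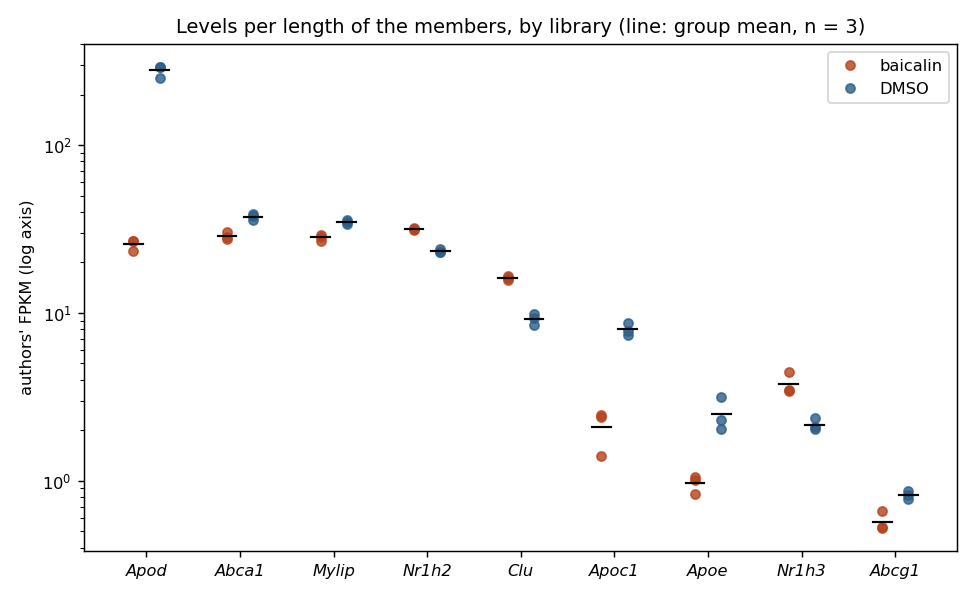
The authors' FPKM of each member on a log axis, in order of the DMSO mean, with baicalin libraries (left of each pair) and DMSO libraries (right) as points and the group means as lines. Apod leads in DMSO at 279 FPKM, while in baicalin Nr1h2, Abca1, Mylip and Apod lie together between 23.4 and 31.9 FPKM.

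Mylip was lower, and Lrp8 and Vldlr, whose proteins it acts on, were higher. Mylip (ENSMUSG00000038175, chromosome 13, 45389742 to 45412022) had 85.0, 93.2 and 90.3 CPM in baicalin and 108.7, 114.3 and 112.5 CPM in DMSO, without overlap (log2 fold change -0.32, SE 0.05, and -0.48 with length and GC trends removed). Its known substrates include the receptors encoded by Lrp8 and Vldlr, and these genes were tested. Lrp8, which encodes the apolipoprotein E receptor 2, rose to 8.30 ± 1.12 CPM in baicalin, against 1.60 ± 0.16 CPM in DMSO (SD, n = 3 each, 5.15-fold, adjusted p = 3.72e-16). Vldlr rose to 145 ± 4.30 CPM in baicalin, against 112 ± 4.58 CPM in DMSO (SD, n = 3 each, 1.29-fold, adjusted p = 2.68e-10). MYLIP acts on the receptor protein, which was not measured.

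Across the LDL receptor family and its adaptors, 19 of 24 listed genes were tested, 10 rose and 3 fell, with a median log2 fold change of 0.29 beside 0.0014 for all tested genes. Lrp1, a large endocytic receptor for apolipoprotein E, had 5338, 5287 and 5598 CPM in baicalin and 3657, 3788 and 3646 CPM in DMSO (1.46-fold, adjusted p = 1.21e-18). The adaptor gene Dab2, which couples receptors of this family to clathrin pits, rose 2.34-fold, and Lrp10 rose 1.44-fold. The 3 falls were those of Sort1, a sorting receptor (3.13-fold), the Wnt coreceptor gene Lrp6 (2.48-fold) and Lrp12 (1.31-fold). With length and GC trends removed 5 of the list were called lower, and 6 with library-size scaling.

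Of 26 other listed LXR target genes 18 were tested, and 11 rose while 4 fell, with a median of 0.31 beside 0.0014 for all tested genes. Most of the rises, and the largest, were of genes of fatty acid synthesis, desaturation and elongation, which are also targets of SREBP1. Scd1, the stearoyl-CoA desaturase gene, had 295, 274 and 285 CPM in baicalin and 101, 98.6 and 104 CPM in DMSO (2.81-fold, edgeR adjusted p = 2.25e-35), Scd2 rose 2.58-fold, the elongase gene Elovl6 1.76-fold and the desaturase gene Fads2 1.61-fold. Srebf1, through which LXR drives fatty acid synthesis, rose 1.19-fold (adjusted p = 4.33e-05), and Lpcat3, which makes polyunsaturated phospholipids, rose 1.28-fold (adjusted p = 3.74e-11). The 4 falls were those of Mertk, Eepd1, Lpl and Pltp. Mertk, a receptor for the uptake of dying cells, had 13.1, 10.3 and 10.3 CPM in baicalin and 75.1, 75.2 and 70.9 CPM in DMSO (6.58-fold lower, adjusted p = 2.19e-35). Eepd1, whose product aids ABCA1-dependent efflux in macrophages, had 5.84, 6.44 and 6.64 CPM in baicalin and 30.9, 31.7 and 30.8 CPM in DMSO (4.93-fold lower, adjusted p = 2.04e-27). The lipoprotein lipase gene Lpl was 2.94-fold lower, and Pltp, which transfers phospholipid to HDL, 1.38-fold lower. Smpdl3a, an LXR target of macrophages, had 1 read in baicalin and none in DMSO. Exons of Srebf1 (with Rai1, over 109 bp), Pltp (with Ctsa, over 495 bp) and Lpcat3 (with Emg1, over 334 bp) overlap those of genes on the other strand, and Rai1 and Ctsa had more reads, so these 3 values are uncertain.

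**Figure D3:**
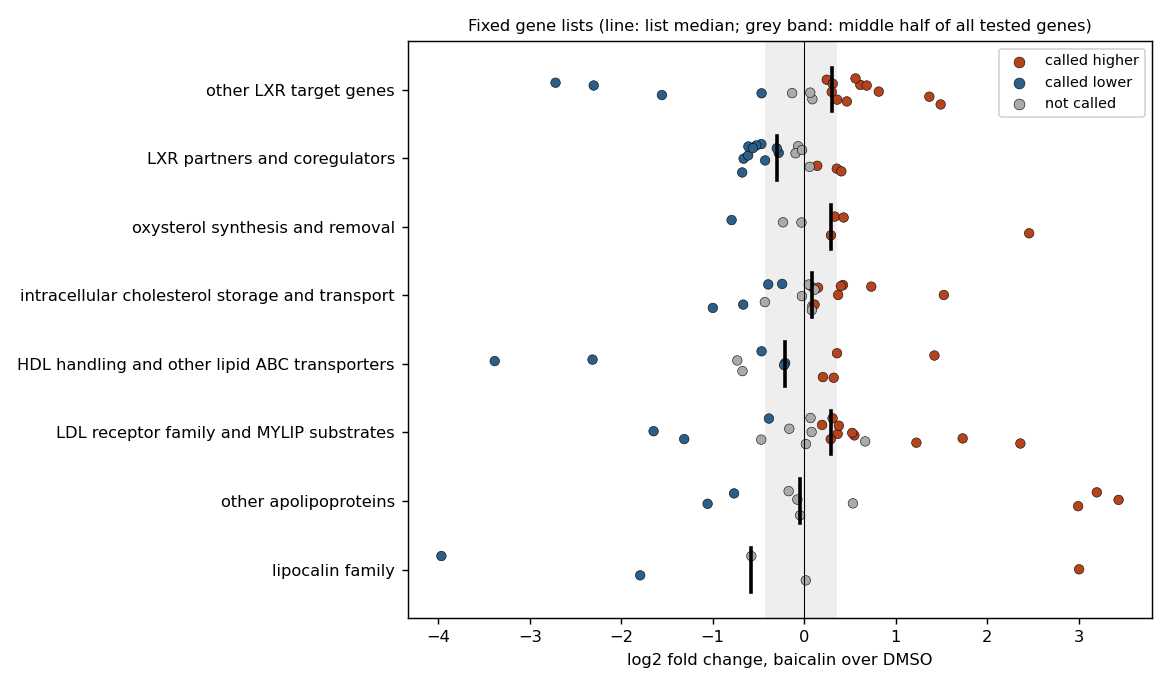
Log2 fold changes (baicalin over DMSO) of the tested genes of 8 fixed lists, one point per gene, coloured by edgeR call, with list medians as black lines; Lipg, without reads in DMSO, is not drawn. The grey band spans the middle quartiles of the tested genes outside the members (-0.42 to 0.35). The LXR target list holds 11 genes called higher, most of them of fatty acid synthesis, beside Mertk at -2.72 and Eepd1 at -2.30.

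Apod was the member that differed most between the groups. It is on chromosome 16 (ENSMUSG00000022548, 31296192 to 31314808) and had 1122, 1216 and 1019 reads in baicalin and 13755, 13053 and 11801 reads in DMSO. In CPM these are 67.5, 68.7 and 59.4 in baicalin and 745.1, 746.6 and 646.7 in DMSO, a log2 fold change of -3.45 (SE 0.07). Replicate 3 was the lowest library of each group, and the groups were far apart. Only 0.211% of the tested genes had a log2 fold change as low or lower. Per length Apod stood at the 84.6th percentile of tested genes in baicalin and at the 99.0th in DMSO. Of the summed FPKM of the 4 apolipoprotein members it made up 53.8 to 60.0% in the baicalin libraries and 92.1 to 94.1% in the DMSO libraries.

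Apoe and Apoc1 lie side by side on chromosome 7 and were both lower, at low levels. Apoe (ENSMUSG00000002985, 19696109 to 19699188), the main ligand of the LDL receptor family, had 29, 38 and 38 reads in baicalin and 90, 76 and 123 reads in DMSO. That is 2.04 ± 0.25 CPM in baicalin and 5.32 ± 1.26 CPM in DMSO (SD, n = 3 each), a log2 fold change of -1.38 (SE 0.21), and -0.82 on the log2(FPKM + 1) scale. Apoc1 (ENSMUSG00000040564, 19689481 to 19692660), a small protein of HDL and VLDL that inhibits lipoprotein lipase, had 17, 32 and 30 reads in baicalin and 101, 101 and 118 reads in DMSO. Its log2 fold change was -1.94 (SE 0.21), with baicalin replicate 1 the lowest library. Per length Apoe stood below Apoc1 in each library, at 0.594, 0.413 and 0.441 times its FPKM in baicalin and 0.310, 0.262 and 0.363 times in DMSO. This order depends on the lengths used, with merged exons of 2138 bp for Apoe and 744 bp for Apoc1. In reads Apoe was above Apoc1 in each baicalin library and in DMSO replicate 3. The other genes of this cluster were nearly silent: Apoc4 had 1 read in baicalin and 9 in DMSO, and Apoc2 had none in baicalin and 1 in DMSO.

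Clu was the only apolipoprotein member with a higher level in baicalin. It is on chromosome 14 (ENSMUSG00000022037, 65968483 to 65981547) and had 52.4, 54.8 and 56.3 CPM in baicalin and 31.8, 28.8 and 33.5 CPM in DMSO. All 3 baicalin libraries were above the DMSO libraries, with a log2 fold change of 0.80 (SE 0.06). Its share of the summed FPKM of the 4 apolipoprotein members was 34.6 to 38.3% in baicalin and 2.72 to 3.58% in DMSO. That sum, mostly Apod in DMSO, was 43.5 to 46.6 FPKM in baicalin and 274 to 311 FPKM in DMSO. The share thus also carries the fall of Apod, as Clu itself stood at 16.1 FPKM in baicalin and 9.20 FPKM in DMSO.

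Placed in order of mean FPKM, the 9 members ran differently in the 2 groups. In baicalin the order was Nr1h2 (31.6), Abca1 (28.9), Mylip (28.2), Apod (25.7), Clu (16.1), Nr1h3 (3.78), Apoc1 (2.09), Apoe (0.969) and Abcg1 (0.572). There the ranges over libraries overlapped between Abca1 and Mylip and between Mylip and Apod, and between no other neighbours. In DMSO it was Apod (279), Abca1 (37.4), Mylip (34.9), Nr1h2 (23.5), Clu (9.20), Apoc1 (8.0), Apoe (2.51), Nr1h3 (2.16) and Abcg1 (0.827). There Clu overlapped with Apoc1 and Apoe with Nr1h3.

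**Figure D4:**
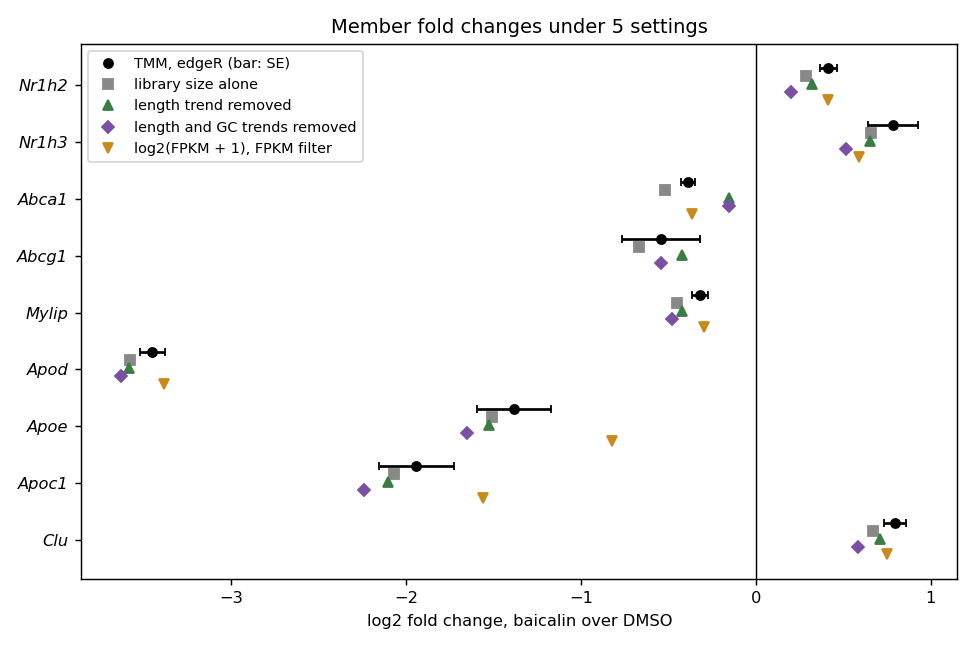
Log2 fold changes of the members (baicalin over DMSO) under 5 settings: the TMM-scaled edgeR fit with its SE, library-size scaling, removal of a length trend, removal of length and GC trends, and limma on log2(FPKM + 1), where Abcg1 fails the FPKM filter. No sign changed, while Abca1 stood between -0.52 and -0.15 and Nr1h2 between 0.20 and 0.42.

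Among other apolipoprotein genes, those of the serum amyloid A family were higher and the classical liver apolipoproteins had few reads. Of 21 listed genes 9 were tested, 3 rose and 2 fell (median log2 fold change -0.04, beside 0.0014 for all tested genes). The 3 rises were Saa3, an acute-phase HDL protein, with 7899, 8087 and 7981 CPM in baicalin and 894, 831 and 883 CPM in DMSO (9.19-fold, edgeR adjusted p = 9.91e-51), Saa1 (10.8-fold) and Saa2 (7.97-fold). Saa1 and Saa2 are near-identical copies, and reads may have been split between them. The 2 falls, Apol8 and Apol10b, were of 24 and 68 reads in baicalin against 53 and 122 in DMSO, are named after their values were seen, and were both lost with DESeq2 (adjusted p = 0.135 and 0.0817). Apol8 was also lost without baicalin replicate 1 or 2 or DMSO replicate 1 or 3 (adjusted p from 0.0535 to 0.111), and Apol10b without baicalin replicate 3 or DMSO replicate 2 (0.0792 and 0.0534). Apoa1, the main HDL protein, had 5 reads in baicalin and none in DMSO, and Apob 2 reads in baicalin and 9 in DMSO. In the lipocalin family, to which Apod belongs, 5 of 11 listed genes were tested, 1 rose and 2 fell (median -0.58). Lcn2, an iron-siderophore carrier, rose to 8132 ± 426 CPM in baicalin, against 1012 ± 96.1 CPM in DMSO (SD, n = 3 each, log2 fold change 3.01, adjusted p = 9.75e-11). Orm3, one of several near-identical orosomucoid genes and so uncertain, fell 3.47-fold. Ptgds, named after its values were seen, fell to 3 reads in baicalin, against 55 in DMSO.

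The HDL and lipid transporter list was split as 5 higher and 5 lower of 12 tested among 14 genes (median log2 fold change -0.21). Scarb1, the HDL receptor gene that exchanges cholesterol with HDL, had 72.6, 72.6 and 74.7 CPM in baicalin and 26.4, 28.8 and 26.8 CPM in DMSO (2.68-fold, adjusted p = 7.74e-28). Abca8b rose 1.28-fold, Abca2 1.25-fold and Abca7, the closest relative of Abca1, 1.15-fold (adjusted p = 0.000731, lost with library-size scaling at 0.209). Lipg, which encodes endothelial lipase and is named after its values were seen, had 46 reads in baicalin and none in DMSO. With the DMSO libraries together set to 3 counts, the floor, that is 16.1-fold higher, leaving out the counting error of the 46 baicalin reads. Beside Pltp the falls were those of Abca9 (15 reads in baicalin, 168 in DMSO) and Abca8a (20 reads in baicalin, 106 in DMSO), both named after their values were seen, and of Abca5 and Abca3, each 1.16-fold. The fall of Abca5 turned into a rise with length and GC trends removed (log2 fold change 0.51), and that of Abca3 was lost under 10 alternatives, among them DESeq2 (adjusted p = 0.126) and leaving out baicalin replicate 2 (0.0845), baicalin replicate 3 (0.0563) or DMSO replicate 3 (0.137). Exons of Abca3 overlap those of D330041H03Rik on the other strand over 914 bp. Lcat, which esterifies HDL cholesterol, stood at 0.88 ± 0.36 CPM in baicalin and 1.46 ± 0.50 CPM in DMSO (SD, n = 3 each) and was not called (adjusted p = 0.0623).

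The list of oxysterol synthesis and removal also held genes of cholesterol synthesis, among them Sc5d and Dhcr7. Several of its genes had too few reads to test. Of 12 listed genes 7 were tested, 4 rose and 1 fell (median 0.29). Cyp27a1, the sterol 27-hydroxylase gene, had no read, and Ch25h, the 25-hydroxylase gene, 6 reads in baicalin and 4 in DMSO. Sc5d rose 1.35-fold, Cyp39a1 1.26-fold and Dhcr7 1.22-fold, the last 2 calls being lost with library-size scaling (adjusted p = 0.0716 and 0.102). The 1 fall, of Cyp7b1 (70 reads in baicalin, 128 in DMSO), is named after its values were seen and was lost with DESeq2 (adjusted p = 0.0669) and without DMSO replicate 3 (0.0769). In the list of cholesterol storage and transport inside cells all 18 genes were tested, 7 rose and 4 fell (median 0.09). Soat1, which esterifies cholesterol for storage, rose 1.34-fold (adjusted p = 9.41e-12), the esterase gene Nceh1, which reverses that step, 1.29-fold, the transfer protein gene Stard4 1.66-fold and Tspo, which overlaps Mcat on the other strand over 53 bp, 1.32-fold. The falls were those of the oxysterol-binding protein gene Osbpl1a (2.0-fold), Cav1 (1.31-fold), Gramd1a (1.18-fold) and Star, named after its values were seen (118 reads in baicalin, 198 in DMSO) and lost with DESeq2 (0.0738), without baicalin replicate 2 (0.0919) or without DMSO replicate 3 (0.111).

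The nearest tested genes on each side of a member by lowest annotated coordinate, 3 per side, are described next. Many lie far from their member. Measured between lowest coordinates, negative on the left, the closest to Abcg1 were at -473 kb and 437 kb. Whether members moved with their surroundings was therefore not tested. Of 48 such genes 18 rose, 20 fell and 10 were not called, so that 38 of 48 were called beside 67.7% of all tested genes. Around Apoe and Apoc1, both lower, 4 of 6 flanking genes were called higher. Tomm40, which encodes the mitochondrial import pore, rose to 48.3 ± 2.10 CPM in baicalin, against 34.3 ± 1.03 CPM in DMSO (SD, n = 3 each, adjusted p = 1.12e-09). Nectin2 rose by a log2 fold change of 0.65 and the NF-κB cofactor gene Bcl3 by 1.69. Relb rose by 0.22, a call lost with library-size scaling (adjusted p = 0.261) and with length and GC trends removed (0.67), while Clptm1 was not called (adjusted p = 0.313) and Clasrp, on the far side of Apoc1, fell (log2 fold change -0.67). Around Abca1, 1 neighbour rose and 4 fell, among them Slc44a1, a choline transporter gene at 410 kb (log2 fold change -0.51, adjusted p = 3.83e-16). The rise was that of the pseudogene Amd-ps4 (44 reads in baicalin, 22 in DMSO) at -1778 kb. The fall of Smc2 changed sign with length and GC trends removed. Around Abcg1 5 of 6 rose. All 6 neighbours of Apod were lower, those on the right lying 294 to 367 kb away. The nearest, the long non-coding RNA gene AC130815.1 on the same strand (31284424 to 31291896), had 3, 3 and 2 reads in baicalin and 25, 43 and 33 reads in DMSO (log2 fold change -3.53, SE 0.47, adjusted p = 2.89e-09). It lies just downstream of Apod, and whether its reads came from transcripts running past the end of Apod was not tested. Ppp1r2, an inhibitor of protein phosphatase 1, fell by 1.12 on the log2 scale. The call of AC161376.2 (adjusted p = 0.0479) was lost under 9 alternatives and that of AC126055.1 (adjusted p = 0.0158) under 4, and Dlg1 stood at 0.01 with length and GC trends removed, against -0.35.

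**Figure D5:**
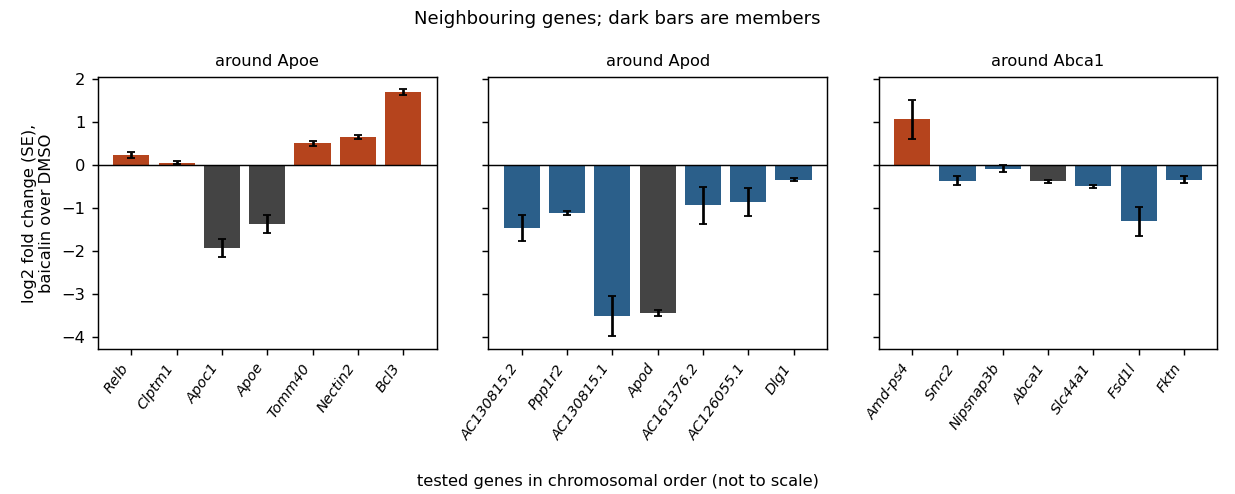
Log2 fold changes (baicalin over DMSO, bars with SE) of Apoe, Apod and Abca1 and of the 3 nearest tested genes on each side, in chromosomal order and not to scale; dark bars are members. Apoe and Apoc1 point down between Clptm1 and Relb on one side and Tomm40, Nectin2 and Bcl3 on the other, which point up, Clptm1 by only 0.05 and down with library-size scaling or with length and GC trends removed. All genes around Apod point down, Dlg1 not once length and GC trends are removed, and those on its right lie 294 to 367 kb away.

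By the root mean square difference of centred log2 CPM over the 6 libraries, 10272 genes with a mean of at least 5 CPM were compared with 3 members. Closest to Apod were Dnm3os (0.258), Ear2 (0.301) and Ogn (0.319), with log2 fold changes of -3.12, -3.37 and -2.85. Closest to Apoe were Ftx (0.151), Sorcs2 (0.160) and Ccl9 (0.164), and closest to Abca1 were Adamts15 (0.0223), Ahdc1 (0.0252) and Igf2bp2 (0.0255). With 2 groups of 3 libraries this likeness mostly reflects the contrast.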

How the data were processed

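RNA of 6 libraries of 3T3 cells was sequenced, 3 with baicalin and 3 with DMSO, from poly-A RNA and made into libraries with an Ultra kit of NEB, as the labels state. The authors counted reads per gene with featureCounts 1.5.0-p3, per the design text, giving the deposited counts. The submitters' processing notes name mm10 as genome build, and the sources used here give no aligner, annotation or strand setting. The deposited FPKM were derived by the authors from counts and gene length, per the design text, and were used here only to compare levels between genes and as an alternative scale. Deposited columns without a sample numbered 0.

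Counts were fitted in edgeR 4.0.16 (R 4.3.3, limma 3.58.1, DESeq2 1.42.0) with filterByExpr, TMM, robust quasi-likelihood and treatment as the only term, and calls are at a Benjamini-Hochberg adjusted p under 0.05 over all tested genes. Where no other test is named, an adjusted p is edgeR's. The fitted variation between libraries of a group beyond counting error was 4.61% (edgeR's biological coefficient of variation), which may here be technical. A gene without reads could have at most 0.181 TMM-scaled CPM in a library (3 counts), counting error only. The scripts were tested on simulated counts. Coordinates are from GENCODE M21, which holds 54495 of the gene identifiers and not 37. Promoter sequences are RefSeq's, on GRCm38.p6.

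The members and the 11 other gene lists were chosen with earlier results of these data known. Genes named are the members, a fixed set of pathway genes, up to 4 called rises and 4 called falls per list with a mean of at least 5 CPM, 3 neighbours per side, and the 3 genes most like Apod, Apoe and Abca1. Some results on listed genes are not reported here. The text marks any other gene as chosen with its values in view. Alternatives were limma-voom, DESeq2, RLE size factors, scaling by library size only, no filter and a stricter count filter, a replicate block, limma on log2(FPKM + 1) and log2(FPKM + 0.1), removal of a lowess trend on length (span 0.3), and leaving out each library. Removal of length and GC trends together was added after seeing the data.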

Additional observations from a re-analysis of the deposited data

How the results depend on the processing

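No member changed sign under any alternative run. With library-size scaling alone the log2 fold changes were -3.58 for Apod, 0.67 for Clu, -0.52 for Abca1, 0.29 for Nr1h2 and -0.45 for Mylip. With the length trend removed they were -3.58 for Apod, -0.15 for Abca1, 0.32 for Nr1h2 and -0.42 for Mylip. With length and GC trends removed, added after seeing the data, they were -3.63 for Apod, -1.65 for Apoe, 0.58 for Clu, -0.15 for Abca1, 0.20 for Nr1h2, 0.52 for Nr1h3 and -0.48 for Mylip. On log2(FPKM + 1), with or without a filter, they were -0.82 for Apoe, -1.56 for Apoc1 and 0.59 for Nr1h3, without a filter -0.22 for Abcg1, and without a count filter Nr1h2 stood at 0.45. Leaving out each library gave -3.51 to -3.37 for Apod and -1.50 to -1.17 for Apoe. Other apolipoproteins called lower numbered 2, against 0 with DESeq2 and on both filtered FPKM scales, 4 with library-size scaling, 1 with no filter or the strict filter and 1 without each library in turn. Coregulators called higher numbered 5 with the length trend removed, against 3. Genes of the oxysterol list called higher numbered 2 with library-size scaling and on unfiltered log2(FPKM + 1), against 4. Those called lower numbered 0 with DESeq2 and on both filtered FPKM scales, against 1. They numbered 3 with library-size scaling or either trend removal, and 0 to 1 without each library. HDL and ABC genes called lower numbered 2 on both filtered FPKM scales and 3 unfiltered, against 5. LDL receptor family genes called lower numbered 6 with library-size scaling and 5 with length and GC trends removed, against 3. Lipocalins called lower numbered 1 under the strict filter, against 2. Part of these lower counts is a matter of filters. Apol8, Apol10b, Cyp7b1, Abca8a and Abca9 failed the FPKM filter and were not tested on the filtered FPKM scales. Apol8 and Ptgds failed the strict count filter and were not tested under it. Library-size scaling put 37.4% of all calls higher, against 49.7%.

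Signs changed for 10 named or neighbouring genes, whose log2 fold changes were otherwise 5033430I15Rik 0.075, Abca5 -0.22, Ccdc25 -0.068, Clptm1 0.047, Dcn -0.18, Dlg1 -0.35, Gmpr 0.14, Smc2 -0.37, Zfand3 0.13, Zfp473 -0.083. Library-size scaling gave -0.051 for 5033430I15Rik, -0.081 for Clptm1, -0.0011 for Zfand3. Length trend removed gave -0.090 for 5033430I15Rik, 0.055 for Abca5, 0.14 for Zfp473. Length and GC trends removed gave -0.22 for 5033430I15Rik, 0.51 for Abca5, 0.062 for Ccdc25, -0.021 for Clptm1, 0.25 for Dcn, 0.013 for Dlg1, -0.14 for Gmpr, 0.029 for Smc2, -0.033 for Zfand3, 0.11 for Zfp473. Leaving out each library gave -0.19 to 0.33 for 5033430I15Rik, -0.11 to 0.0013 for Ccdc25, -0.28 to 0.11 for Zfp473. Over 116 named or neighbouring genes, 1914 of 2034 recomputed values kept direction and call, 80 lost the call, 19 gained it and 21 changed sign. The causes were not tested. Correlations of deviations between same-numbered libraries of the 2 groups were 0.0768, 0.0856 and -0.0039, and those between differently numbered ones -0.0988 to 0.0277. With 3 libraries per group these values cannot decide whether replicate numbers pair the libraries. With the replicate as a block 4660 genes were called higher and 4731 lower, with Apod at -3.45. At group means of 1.53 to 5.90 CPM, reads limit Apoe, Apoc1 and Abcg1.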
